A study of Bos taurus with 52 samples.

Results

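The comparison was between whole conceptuses from subfertile heifers (SF) and the long conceptuses from high-fertile heifers (HF long), all recovered on day 17 of pregnancy from cattle. The members were the 10 conceptus libraries labelled subfertile and the 10 high-fertile conceptus libraries whose size label was long, 20 of the 52 libraries of the series. The other 32 libraries were 25 of endometrium, not used here, and 7 of high-fertile conceptuses labelled short (HF short), whose values are set beside the main ones. No treatment or allele is given for any group, and the sources used here do not say how fertility was classified or where the embryos came from.

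Several conceptuses came from 1 animal. The 10 SF conceptuses came from 7 recipient heifers, 3 of which gave 2 each (replicates 1 and 8, 3 and 4, 5 and 6), and the 10 HF long conceptuses from 10 recipients. Counts were therefore summed per recipient before testing, and n is the number of recipients. Lengths stood in the titles of 9 SF conceptuses (1.5 to 14 cm, rounded, median 4) and 5 HF long conceptuses (9 to 17 cm, median 12, rounded, from a title that writes no unit). The size labels apply to HF conceptuses alone, so length and fertility class differed together in this comparison and cannot be told apart.

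In ruminants the blastocyst does not implant at once. It first grows into a long filament, mostly of trophectoderm lined by extraembryonic endoderm, with a small embryonic disc, and its mononuclear trophectoderm cells secrete interferon tau, the signal that keeps the corpus luteum and so the pregnancy. The elongating conceptus takes up lipids, glucose, fructose and amino acids from uterine secretions, and makes prostaglandins and other lipid mediators of its own. A library of a whole conceptus mixes these cell types: fewer cells of a type and less RNA per cell cannot be told apart.

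Libraries held 20.5 to 47 M reads in SF and 22.9 to 39.8 M in HF long, with 18818 to 22694 and 19346 to 21126 genes detected. In a principal component analysis of the 20 libraries, the first component (24.1% of the variance) placed the 10 SF libraries between -47.4 and -2.3 and the HF long libraries between -34.4 and 101.1. HF long replicates 2, 6, 8 and 9 stood apart from all other libraries at 53.1, 70.3, 101.1 and 94.1, while HF long replicates 1 and 3 (-34.4 and -22.8) lay among the SF libraries. The noncoding RNA RN7SL1 was at 9295 to 71710 CPM (normalised read counts, scaled to library size) in HF long and 9714 to 26990 CPM in SF, with HF long replicates 2, 8 and 9 above every SF library. HF long replicates 1 and 9 held both XIST, the transcript of the inactive X (57.7 and 56.1 CPM), and the Y-linked DDX3Y (39.4 and 45.5 CPM). SF replicates 1, 5 and 6 also held both, with less XIST (19.8, 18.7 and 11.8 CPM) beside DDX3Y at 176.2, 97.7 and 105.3 CPM. In SF replicates 2 and 3, which held DDX3Y too, XIST was at 2.35 and 0.982 CPM. DDX3Y ran from 0 to 207.2 CPM in SF (median 101.5) and from 0 to 180 CPM in HF long (median 0.454). XIST was highest in SF replicates 10 and 9 (444 and 370 CPM), against at most 162.7 CPM in HF long. The groups were thus not balanced in sex-linked transcripts, and edgeR called none of the 6 tested. SF replicates 8, 9 and 10 carried a second series of sample numbers in the labels, matched by animal number and length, which no HF long library carried. What the series marks is not stated, and the part of these features in the results below was not tested beyond the values given with the libraries left out.

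**Figure D1:**
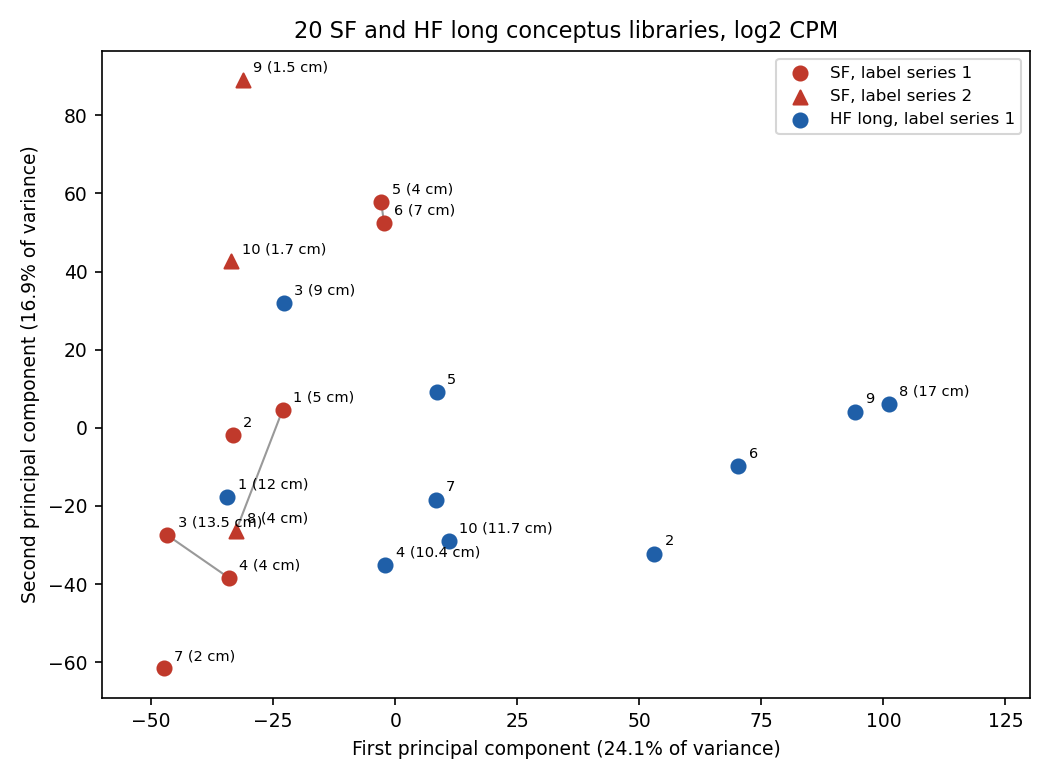
Principal component analysis of log2 CPM in the 20 libraries, with the first component on the x axis (24.1% of the variance) and the second on the y axis (16.9%). Each point is a library with its replicate number and length where given, red for SF and blue for HF long, triangles mark the second series of sample numbers and grey lines join conceptuses of 1 recipient. HF long replicates 2, 6, 8 and 9 lie alone at the right, and HF long replicates 1 and 3 lie among the SF points.

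Of 15383 genes tested with edgeR's quasi-likelihood test, 788 (5.12%) were called at a Benjamini-Hochberg adjusted p under 0.05, 382 higher in SF (2.48%) and 406 lower (2.64%). Of these, 340 differed at least 2-fold (2.21%), 190 higher and 150 lower. In 42 genes (0.273%) no SF recipient overlapped any HF long recipient. The median log2 fold change over all genes was 0.03. An unadjusted p under 0.05 was reached by 3675 genes, where 769.15 would be expected with no difference.

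The number of calls rested on which recipients were in the fit. The called genes kept their direction in the fits below, but they were chosen in these same libraries, which largely sets that outcome. Without SF replicates 9 and 10, the recipients with second-series libraries only, 3 genes were called, and 787 of 787 earlier calls with a value kept their sign. Without HF long replicates 2, 8 and 9, those with high RN7SL1, 1 gene was called and 779 of 779 kept their sign, with a median absolute log2 fold change of 0.75 in place of 0.89. Among first-series libraries alone (5 against 10 recipients) 9 of 15608 genes were called (0.0577%), and 776 of the 786 earlier calls tested there had an unadjusted p under 0.05 with the same sign. These fits share most of their libraries, so they are not independent. Leaving out any 1 of HF long replicates 2, 6, 8, 9 and 10 or of the SF recipients of replicates 2, 3 and 4, 9, and 10 left 266 to 399 calls, and leaving out HF long replicate 1 gave 1394. Treating conceptuses of 1 recipient as separate samples gave 1434 calls, and modelling the recipient as a random effect in limma gave 707. Of the members of all gene lists described below, ELOVL4 alone was called in either of the fits with 3 and 1 calls, and ELOVL4 and CGA alone among first-series libraries. The counts of called list members below stand against 2.48% of all genes called higher and 2.64% called lower. Where a list has 1 or 2 calls in a direction, the values describe single genes and are not read as a result about the list.

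The called regulators of trophectoderm were lower in SF conceptuses, while the members of the list that were not called went both ways. Of 31 tested trophectoderm transcription factors and keratins, 6 were called lower and none higher, against 2.64% and 2.48% of all genes, with a list median log2 fold change of -0.17. Of the 31, 12 had a positive fold change, the highest 2.47, none of them called. All 6 were transcription factors: GATA3, HAND1, MSX2, DLX3, DLX5 and DLX6. With HF long replicates 2, 8 and 9 left out, and likewise with SF replicates 9 and 10 left out, none of the 31 was called.

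GATA3, a zinc-finger factor that specifies trophectoderm, was at 26.8 to 68.7 CPM in SF (median 46.7) and 48.2 to 204 CPM in HF long (median 102). HF long replicates 3 and 1 were the lowest of their group and the only ones within the SF range. It was 1.23 ± 0.26 lower on the log2 scale (SE; adjusted p = 0.0191), with recipient means of 46.0 ± 9.38 CPM (SD, n = 7) and 109 ± 48.2 CPM (SD, n = 10).

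HAND1, a basic helix-loop-helix factor needed for trophoblast and extraembryonic mesoderm, was at 1.25 to 19.7 CPM in SF (median 6.68) and 2.41 to 173 CPM in HF long (median 51.8). HF long replicates 1 (2.41 CPM) and 3 (4.86 CPM) lay within the SF range and the other 8 lay above it, so that the groups overlapped through those libraries. The log2 fold change was -3.26 ± 0.77 (adjusted p = 0.0288), and -2.55 without the HF long libraries with high RN7SL1.

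The homeobox genes differed less in size. DLX5 was at 2.35 to 6.95 CPM in SF (median 4.12) and 6.05 to 14.2 CPM in HF long (median 10.1). Again HF long replicates 1 and 3 were the only ones within the SF range. DLX5 had a log2 fold change of -1.36 ± 0.23 (adjusted p = 0.0142) and MSX2, which acts downstream of BMP signals, one of -1.02 ± 0.21 (adjusted p = 0.0186). DLX6 (-1.68 ± 0.35) and DLX3 (-0.93 ± 0.26), members of the same family as DLX5, were also called, and were named after their values were seen. CDX2, which sets up trophectoderm in the blastocyst, was at 11.9 to 29.4 CPM in SF and 11.0 to 18.6 CPM in HF long, with a log2 difference of 0.43 ± 0.15 that was not called (adjusted p = 0.0857).

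Of 16 tested genes on the list of trophoblast products, 2 were called higher (CGA and TDGF1) and 2 lower (SSLP1 and TKDP2), with a list median of -0.59. TDGF1 is also on the epiblast list, is counted there again and is described with it. Members of the IFNT, PAG and TKDP families have close copies, so read assignment among them is uncertain. IFNT2, an interferon tau gene, was at 1780 to 10500 CPM in SF (median 5210) and 6330 to 13200 CPM in HF long (median 8160). SF replicates 2 and 9 were the lowest and SF replicates 8 and 6 were above the HF long median, and the difference of -0.82 ± 0.27 was not called (adjusted p = 0.0787, called under 5 of 34 alternatives). PAG2, a pregnancy-associated glycoprotein, differed by -0.72 ± 0.39 (adjusted p = 0.273). SSLP1, a secreted trophoblast product, had a median of 2030 CPM in SF and 3380 CPM in HF long, and was called lower by 0.65 ± 0.16 on the log2 scale (adjusted p = 0.0344). It was called in 8 of the 17 fits that left out 1 recipient. TKDP2, a trophoblast Kunitz-domain protein, was called lower (-5.32 ± 1.41, adjusted p = 0.0401), and HF long replicates 8, 9 and 6 at 1060, 188 and 168 CPM stood far above all other HF long libraries, which lay at 3.35 to 15.4 CPM. It was at -2.93 without HF long replicates 2, 8 and 9 and at -2.52 with recipient as a random effect in limma, called in neither, and was called in 7 of the 17 fits.

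CGA differed most in the other direction among genes that met the naming rule. It encodes the alpha subunit shared by the glycoprotein hormones. It lay at 0.417 to 111 CPM in SF (median 5.48) and 0 to 1.4 CPM in HF long (median 0.373). SF replicates 2, 6 and 5 were highest at 111, 68.2 and 60.5 CPM, the last 2 from 1 recipient, and SF replicates 1, 3, 7 and 8 lay within the HF long range. The log2 fold change was 5.63 ± 1.05 (adjusted p = 0.0156). The gene was called in all 17 fits that left out 1 recipient and among first-series libraries (6.03 ± 1.04, adjusted p = 0.0469). It was not called without SF replicates 9 and 10 (adjusted p = 0.0603), without HF long replicates 2, 8 and 9 (adjusted p = 0.1), or with recipient as a random effect in limma (4.30 ± 1.68, adjusted p = 0.126).

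**Figure D2:**
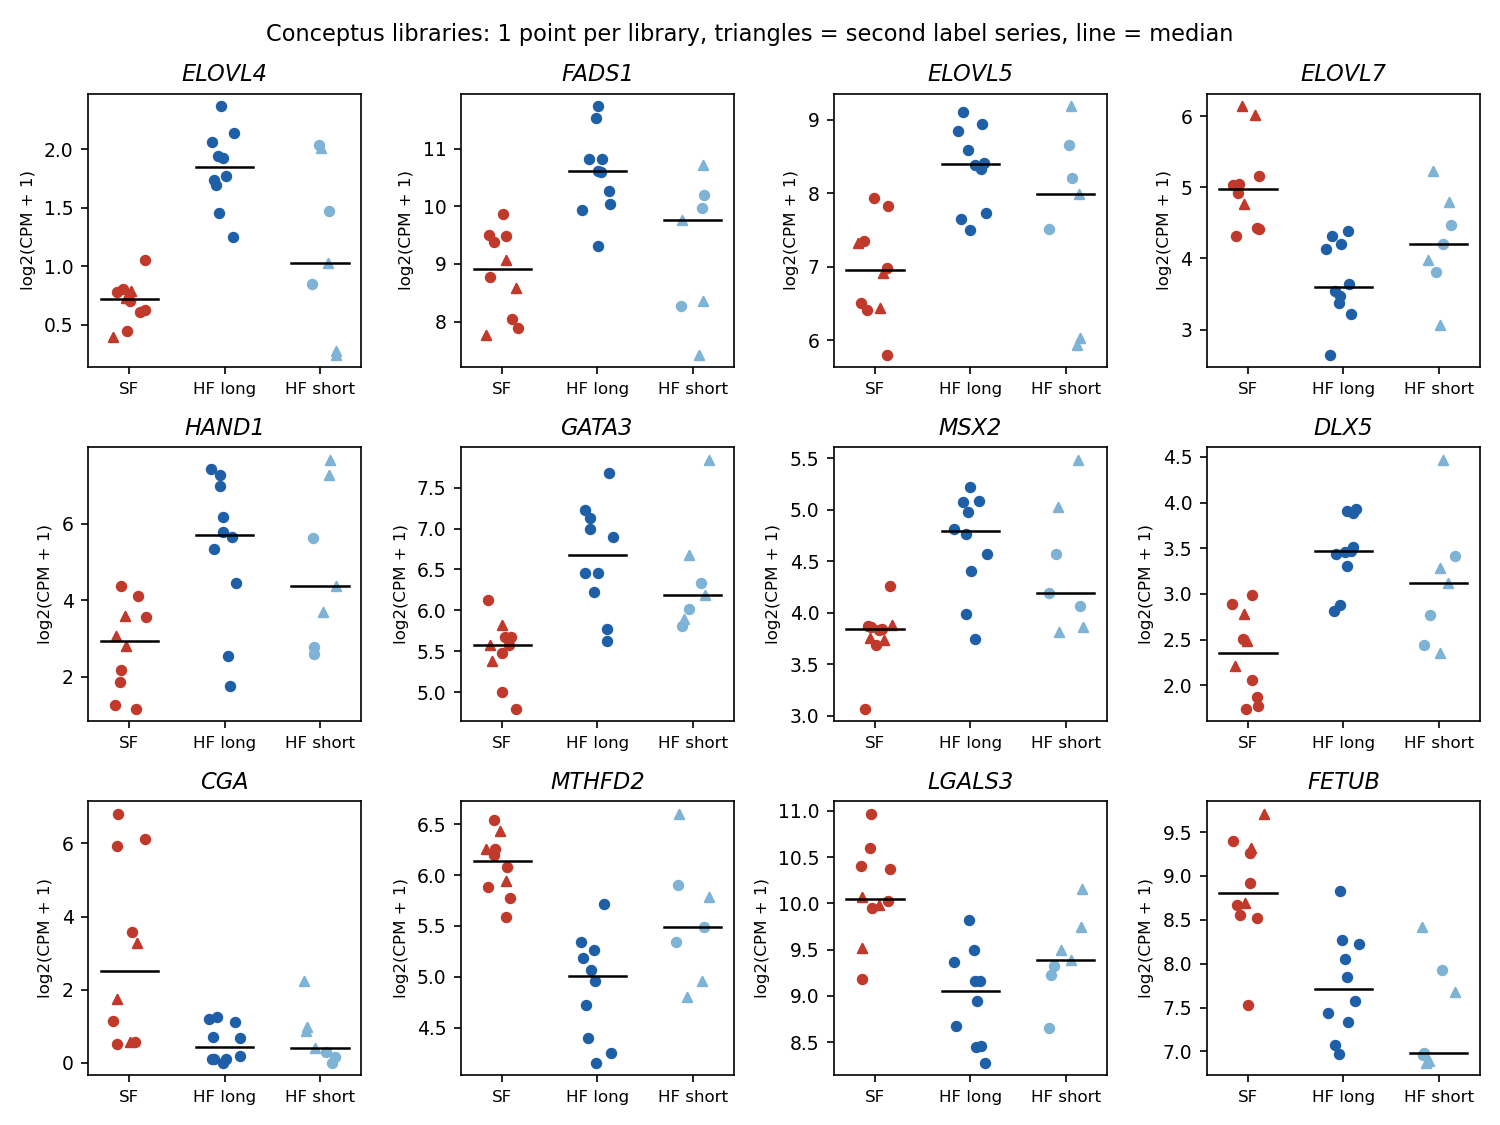
Normalised read counts of 12 genes as log2(CPM + 1) on the y axis, by group on the x axis. Each point is a library, triangles mark the second series of sample numbers and bars are group medians over the SF (red), HF long (blue) and HF short (light blue) libraries. ELOVL4 shows no overlap of SF with HF long, while for CGA 4 SF libraries lie within the HF long range.

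Genes of fatty acid elongation and desaturation were called in both directions. Of 19 tested genes of fatty acid synthesis, 4 were called lower in SF (ELOVL4, FADS1, ELOVL5 and GPAM) and 2 higher (ELOVL6 and ELOVL7), against 2.64% and 2.48% of all genes, with a list median of 0.14. ELOVL4 was the only one of the 6 called among first-series libraries and in both fits with recipients left out. The lower ones include FADS1 and ELOVL5, which act on polyunsaturated fatty acids, but FADS2 and ELOVL2 of the same list were not called. The higher ones act mainly on saturated and monounsaturated chains. The enzymes of new fatty acid synthesis FASN and ACACA, and the desaturase SCD, were among the 13 that were not called.

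ELOVL4, which extends very-long-chain fatty acids, was the gene with the smallest p of all 15383, and is named after its values were seen because its level was low. It was at 0.316 to 1.07 CPM in SF (median 0.645) and 1.38 to 4.18 CPM in HF long (median 2.61). Every SF library lay below every HF long library. Its difference was -2.13 ± 0.26 on the log2 scale (adjusted p = 0.00217). It was called in all 34 alternatives (adjusted p up to 0.0269), including both fits that left 3 and 1 calls in all.

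FADS1, the delta-5 desaturase, was abundant, at 216 to 935 CPM in SF (median 485) and 636 to 3420 CPM in HF long (median 1550). HF long replicate 1 (636 CPM) was the only one within the SF range. The log2 fold change was -1.88 ± 0.33 (adjusted p = 0.0142), between recipient means of 458 ± 186 CPM (SD, n = 7) and 1700.0 ± 874 CPM (SD, n = 10).

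ELOVL5, which extends polyunsaturated fatty acids after desaturation, was at 54.7 to 244 CPM in SF (median 122) and 180 to 550 CPM in HF long (median 336). SF replicates 5 and 6, from 1 recipient, were the highest SF libraries and overlapped HF long replicates 8, 3 and 6. ELOVL5 differed by -1.48 ± 0.27 on the log2 scale (adjusted p = 0.0148). GPAM, which starts glycerolipid assembly, was lower by 1.15 ± 0.20 on the log2 scale (adjusted p = 0.0142), with medians of 42.8 CPM in SF and 103 CPM in HF long.

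ELOVL7 went the other way, at 19 to 69.6 CPM in SF (median 30.5) and 5.27 to 19.9 CPM in HF long (median 11.1). SF replicates 9 and 10 were highest (69.6 and 63.5 CPM), and SF replicate 7 (19 CPM) was the only SF library within the HF long range. The log2 fold change was 1.54 ± 0.30 (adjusted p = 0.0186), and 0.97 without SF replicates 9 and 10. ELOVL6, named after its values were seen, differed by 0.55 ± 0.13 (adjusted p = 0.0311), with medians of 860 and 654 CPM.

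Among 29 genes of fatty acid uptake, storage and oxidation, 2 were called higher and 1 lower, with a median of -0.15. FABP3, a cytoplasmic fatty acid carrier, was at 184 to 588 CPM in SF (median 358) and 167 to 295 CPM in HF long (median 194). SF replicate 7 was the only SF library within the HF long range, and the log2 fold change was 0.86 ± 0.18 (adjusted p = 0.0191). ACADM, which starts the oxidation of medium-chain fatty acids, was higher (0.55 ± 0.15) and SLC27A1, a fatty acid transport protein, lower (-1.88 ± 0.51). SLC27A1 was at -0.98 without HF long replicates 2, 8 and 9, and was called in 6 of the 17 fits that left out 1 recipient. OLAH, a thioesterase that releases medium-chain fatty acids from the synthase, was among the 10 genes with the largest increase (3.37 ± 0.82, adjusted p = 0.0308). SF replicates 2 and 4 were highest for OLAH, at 25.4 and 11.3 CPM, while HF long libraries lay at 0 to 1.53 CPM. Of 25 genes of cholesterol synthesis and uptake none was called by edgeR (2 had an unadjusted p under 0.05), limma with recipient as a random effect or DESeq2, and their fold changes ran from -0.45 to 0.43 on the log2 scale.

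The called genes on the lists of the embryonic disc and of endoderm were higher in SF, but most members of both lists were not called. Of 11 tested epiblast and pluripotency genes, 2 were called higher and none lower, and 10 of 11 had a positive fold change, with a median of 0.78 against 0.03 over all genes. Among first-series libraries 8 of the 11 were positive, with a median of 0.55, and none was called. TDGF1, a co-receptor for NODAL, was at 14.2 to 133 CPM in SF (median 63.1) and 3.2 to 41.9 CPM in HF long (median 19.1). SF replicates 9 and 10 were highest (133 and 107 CPM), and SF replicates 2, 5 and 6 lay within the HF long range. TDGF1 differed by 1.76 ± 0.49 on the log2 scale (adjusted p = 0.0459), and 1.23 and no longer called without SF replicates 9 and 10. OTX2, a homeobox gene of the epiblast and anterior endoderm named after its values were seen, was higher by 2.03 ± 0.51 (adjusted p = 0.0342) at low levels, up to 5.31 CPM in SF. OTX2 was called in 9 of the 17 fits that left out 1 recipient. Without SF replicates 9 and 10 it was at 1.51 and not called (adjusted p = 0.0988). POU5F1, the pluripotency factor OCT4, was at 0.463 to 18 CPM in SF and 0.269 to 4.89 CPM in HF long, and its difference was not called (2.01 ± 0.59, adjusted p = 0.0547). DPPA2, a chromatin factor of early embryos and germ cells that was not on the epiblast list, was called higher (3.39 ± 0.86, adjusted p = 0.035). SF replicate 2 was highest for DPPA2 at 38.7 CPM and lowest of the SF libraries for POU5F1 at 0.463 CPM.

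Of 27 endoderm genes 3 were called higher and none lower, against 2.48% and 2.64% of all genes, with a list median of 0.13. Of the 27, 17 had a positive fold change and the others did not, and the range was -3.19 to 2.26. None of the 27 was called with SF replicates 9 and 10, or with HF long replicates 2, 8 and 9, left out. FETUB, a secreted fetuin, was at 184 to 835 CPM in SF (median 447) and 124 to 454 CPM in HF long (median 209). Most SF libraries lay above most HF long libraries, with SF replicate 7 lowest in SF and HF long replicate 8 highest in HF long. FETUB was higher by 1.17 ± 0.28 on the log2 scale (adjusted p = 0.0314). AMN, the endocytic partner of cubilin in visceral endoderm, was higher by 1.52 ± 0.35 (adjusted p = 0.0237). PDGFRA, a growth factor receptor of primitive endoderm named after its values were seen, was called (2.26 ± 0.62), but SF replicates 9 and 10 held 90.6 and 42.3 CPM and the difference was 0.62 without them and 1.40 with recipient as a random effect, called in neither. APOA1, an abundant endoderm apolipoprotein, had medians of 1510 and 1360 CPM and was not called (0.13 ± 0.21, adjusted p = 0.739).

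In mesoderm and gastrulation genes, 1 of 12 was higher, the T-box gene TBX20 (0.81 ± 0.19, adjusted p = 0.0265), and 1 was lower, HAND1. Of 6 tested blood and endothelial genes, PECAM1, an adhesion molecule of endothelium, was lower (-2.09 ± 0.51, adjusted p = 0.0307). PECAM1 was at 0.425 to 11.5 CPM in SF and 6.22 to 31.9 CPM in HF long, and SF replicates 5 and 6 were the SF libraries within the HF long range. Of 25 tested matrix and mesenchyme genes edgeR called none (9 had an unadjusted p under 0.05). Over their own sets of genes, limma with recipient as a random effect called 1 and DESeq2, run without the low-count filter, 3.

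**Figure D3:**
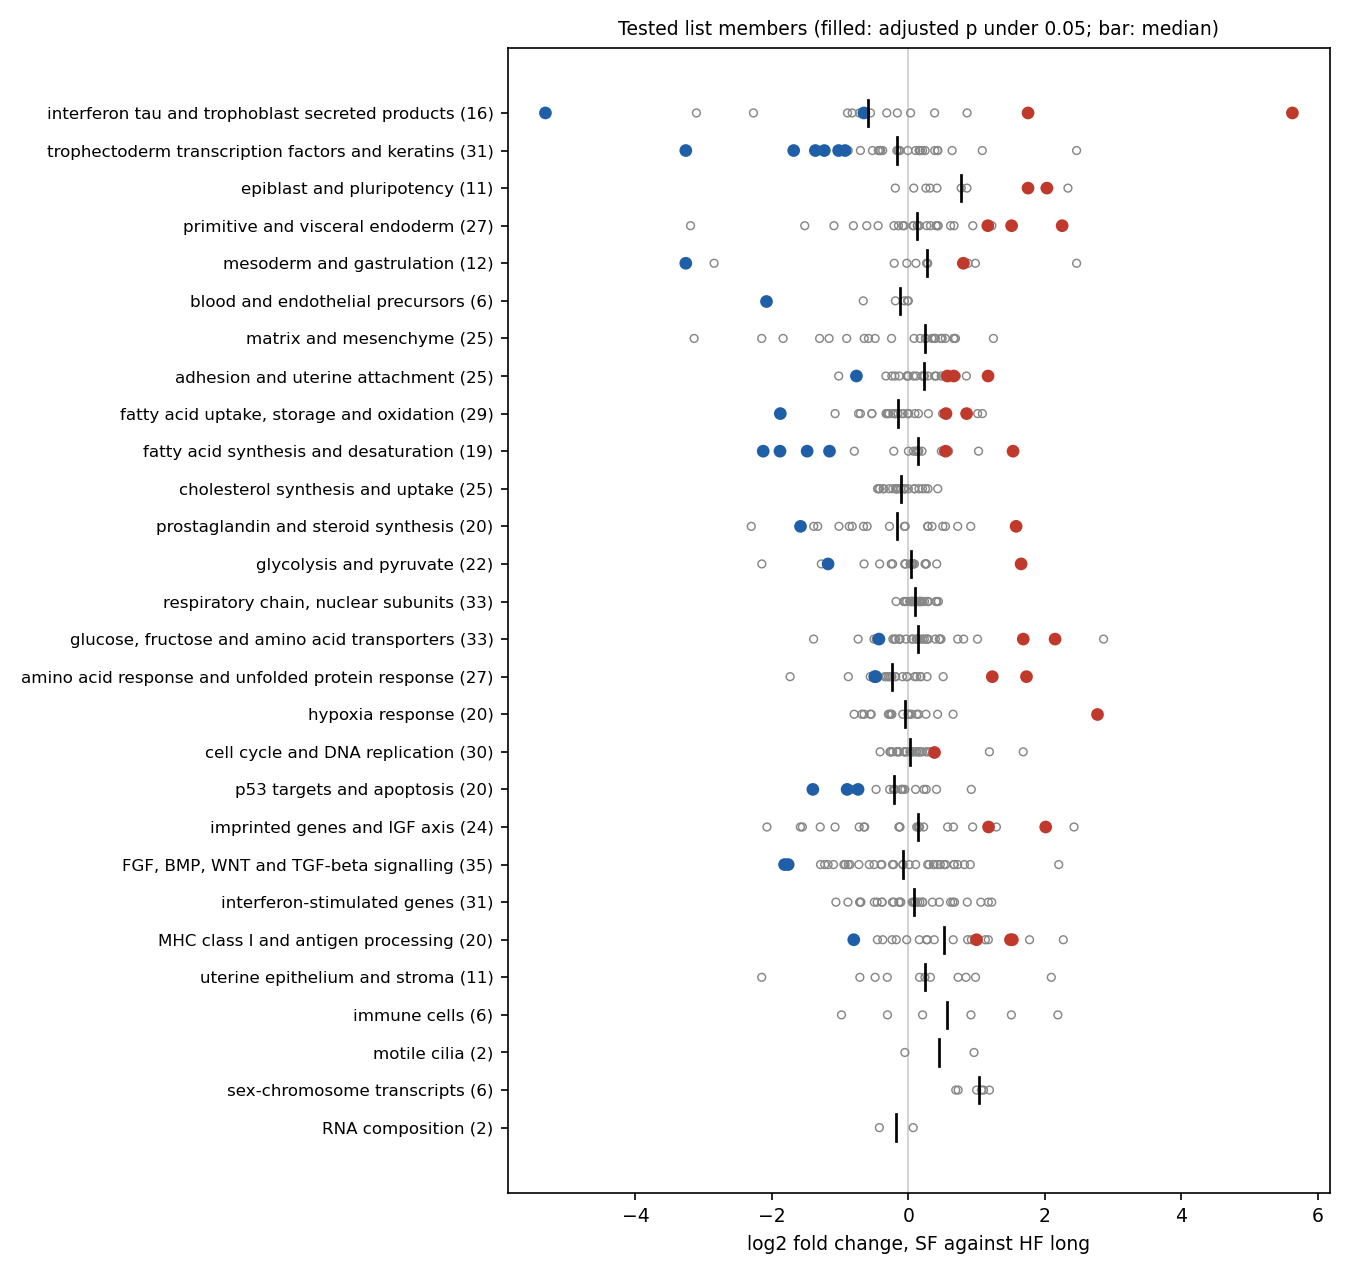
Log2 fold changes, SF against HF long, on the x axis for the tested members of each of 28 gene lists on the y axis (number tested in parentheses). Each circle is a gene, filled red or blue where called higher or lower and open where not called, and the bar is the list median. All 6 called trophectoderm regulators lie below 0, and no member of the cholesterol and interferon-stimulated lists is filled (calls by edgeR).

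Among called genes that met the naming rule (5 CPM or more in 1 group mean and 80% or more of recipient pairs in the direction of the change, which TKDP2 missed at 77.1%, as did some other called genes), the largest decreases came in genes that were high in the HF long libraries standing apart. FOXO4, a forkhead factor of the insulin pathway, was at 0.227 to 1.56 CPM in SF (median 0.81) and 0.389 to 119 CPM in HF long (median 3.61). HF long replicates 8, 6, 9 and 2 held 119, 49.0, 43.9 and 13.7 CPM, while the other HF long libraries reached at most 4.35 CPM. The log2 fold change was -4.81 ± 1.09 (adjusted p = 0.0237), and -3.39 without HF long replicates 2, 8 and 9. CEBPA, a transcription factor of differentiated epithelia and fat, showed the same 4 libraries highest (44.8, 32.0, 19.1 and 16.8 CPM), against at most 3.27 CPM in SF, and a log2 fold change of -3.85 ± 0.99.

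Others among the 10 largest decreases under that rule were ITGB2, a leukocyte integrin subunit (-4.21 ± 1.18), CALCRL, the receptor of adrenomedullin (-3.92 ± 1.11), FASLG, a death ligand (-3.45 ± 0.84), IL18R1, an interleukin receptor (-3.17 ± 0.89), and DOK4, an adaptor of receptor tyrosine kinases (-3.14 ± 0.83). Without HF long replicates 2, 8 and 9 they stood at -2.63 (ITGB2), -2.78 (CALCRL), -2.36 (FASLG), -1.79 (IL18R1) and -1.82 (DOK4), none of them called. CALCRL was called in 4 of the 17 fits that left out 1 recipient, IL18R1 in 5, ITGB2 in 6, DOK4 in 7, CEBPA in 8 and FASLG in 10. PAPSS2, which makes the sulfate donor of the cell (-3.55 ± 0.77), and COLCA2 (-3.44 ± 0.56) were called in all 17. With recipient as a random effect in limma COLCA2 stayed called (-3.18, adjusted p = 0.0144) and the other 9 of these 10 genes were not. PAPSS2 was then at -2.67 ± 1.07 (adjusted p = 0.136), FOXO4 at -2.89, ITGB2 at -2.63, CEBPA at -2.88, FASLG at -2.57, IL18R1 at -2.22, DOK4 at -2.01, HAND1 at -2.70 (adjusted p = 0.072) and CALCRL at -4.33. COLCA2 was at 0.104 to 1.03 CPM in SF and 1.13 to 11.1 CPM in HF long, so that no library overlapped.

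Among the 10 largest increases under the same rule, HMOX1, the heme-degrading oxygenase, was at 10.7 to 776 CPM in SF (median 208) and 7.77 to 106 CPM in HF long (median 23.0). SF replicate 10 was highest, and SF replicates 2 and 7 were the only ones within the HF long range. HMOX1 was higher by 2.76 ± 0.67 on the log2 scale (adjusted p = 0.0313). It was the only called gene of 20 in the hypoxia list, whose median was -0.04. HIST1H2AK, a histone H2A gene (4.58 ± 0.89), rested on SF replicates 10, 7 and 1 (40.0, 27.6 and 4.27 CPM), as the other SF libraries reached at most 1.17 CPM. With recipient as a random effect in limma it was at 2.12 ± 1.05 and not called (adjusted p = 0.227). FSIP2, a sperm fibrous sheath protein gene (3.36 ± 0.96, adjusted p = 0.0497), was called in 2 of the 17 fits that left out 1 recipient and not with the random effect (adjusted p = 0.21). LOC100847413, paired with MEG8 in the RefSeq table, an imprinted noncoding RNA, was higher by 2.65 ± 0.68, with SF replicate 10 at 121 CPM, and by 1.55 without SF replicates 9 and 10. A further 3 of these 10 genes have no symbol in the reference table.

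**Figure D4:**
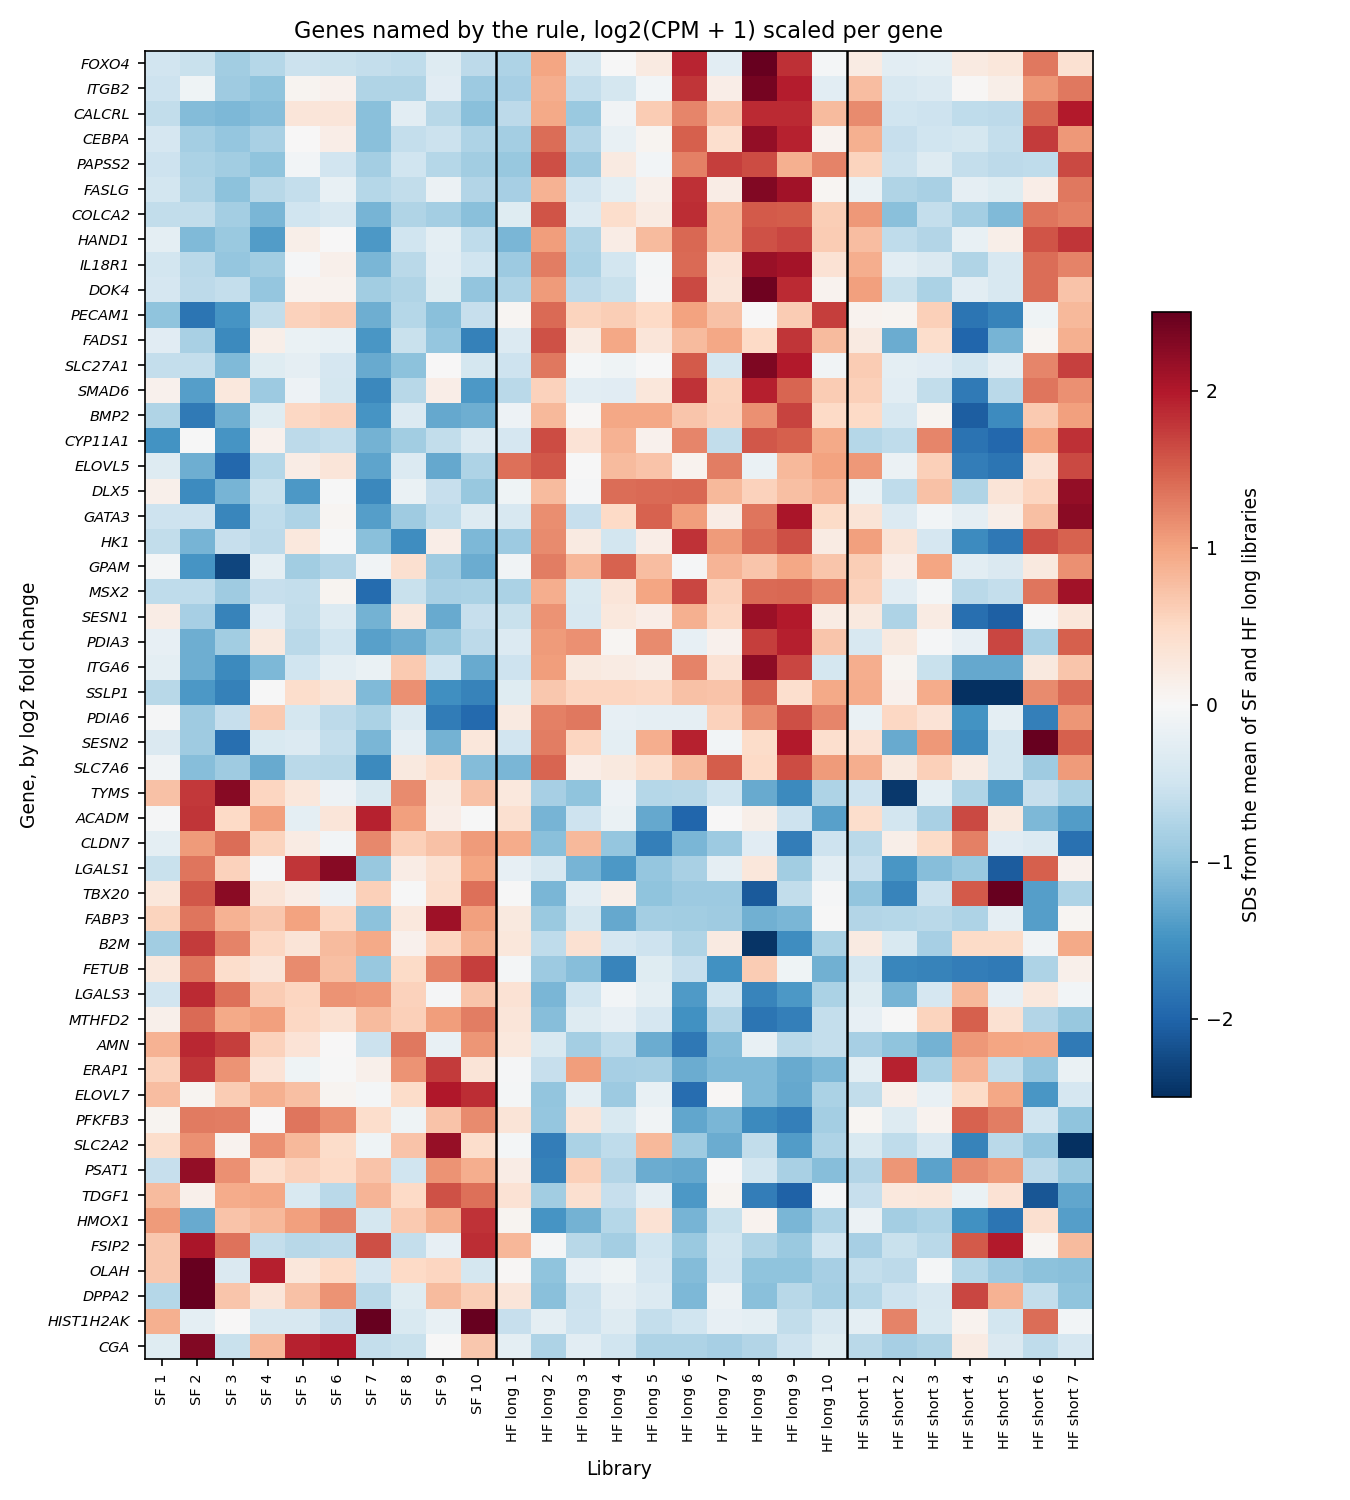
Levels of 52 symbol-named genes chosen by the naming rule (y axis, ordered by log2 fold change) in the 27 conceptus libraries (x axis), as log2(CPM + 1) scaled per gene to SDs from the mean of the SF and HF long libraries. HF long replicates 6, 8 and 9 are darkest red in the genes with the largest decreases, and HF long replicate 1 is blue in most of them like the SF libraries.

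Of 27 genes of the amino acid and unfolded protein responses, 2 were higher and 2 lower, against 2.48% and 2.64% of all genes, with a median of -0.24. None of the 4 was called among first-series libraries or in either fit with recipients left out. MTHFD2, a mitochondrial folate enzyme, was at 47 to 91.9 CPM in SF (median 69.4) and 16.8 to 51.5 CPM in HF long (median 31.2). SF replicate 1 (47 CPM) and HF long replicate 1 (51.5 CPM) were the only libraries to cross, and the recipient values did not overlap. MTHFD2 was higher by 1.23 ± 0.20 on the log2 scale (adjusted p = 0.0117). PSAT1, of serine synthesis, was higher by 1.73 ± 0.41 (adjusted p = 0.0271), while SESN2, a stress-induced inhibitor of mTORC1 signalling (-0.48 ± 0.13), and PDIA6, a chaperone of the endoplasmic reticulum (-0.49 ± 0.12), were lower.

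In glycolysis 1 of 22 genes was higher and 1 lower, near the shares of all genes (2.48% and 2.64%), so that the values describe single genes. PFKFB3, which makes the activator of phosphofructokinase, was at 25.3 to 81.0 CPM in SF (median 60.1) and 6.5 to 36.3 CPM in HF long (median 13.1). SF replicates 8, 4 and 1 were lowest and overlapped HF long replicates 1, 3 and 5, and the log2 fold change was 1.65 ± 0.35 (adjusted p = 0.0191). HK1, a hexokinase, was lower (-1.18 ± 0.30, adjusted p = 0.0372). Of 33 transporters 2 were higher and 1 lower, likewise near those shares. SLC2A2, the low-affinity glucose and fructose transporter, had medians of 16.2 CPM in SF and 5.54 CPM in HF long and was higher by 1.69 ± 0.38 (adjusted p = 0.0237). SF replicate 9 was highest at 51.1 CPM. SLC2A4, the insulin-regulated glucose transporter, was called at very low levels (medians of 0.791 and 0.178 CPM), and SLC7A6, a cationic amino acid exchanger, was lower by 0.43 ± 0.12. Of 33 nuclear subunits of the respiratory chain edgeR called none (5 had an unadjusted p under 0.05), limma with recipient as a random effect 0 and DESeq2 2.

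In prostaglandin and steroid synthesis 1 of 20 genes was higher and 1 lower, near the shares of all genes (2.48% and 2.64%), with a median of -0.17. CYP11A1, the side-chain cleavage enzyme that starts steroid synthesis, was at 0.957 to 4.13 CPM in SF (median 2.27) and 2.32 to 11.9 CPM in HF long (median 7.36). HF long replicates 7, 1 and 5 lay at or under the highest SF library, replicate 4, and the log2 fold change was -1.58 ± 0.35 (adjusted p = 0.0203). HPGD, which inactivates prostaglandins and was named after its values were seen, was higher by 1.58 ± 0.45 (adjusted p = 0.0475), and was called in 2 of the 17 fits that left out 1 recipient.

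Among 25 adhesion and attachment genes 3 were higher and 1 lower. LGALS3, a galectin, was at 580 to 2000.0 CPM in SF (median 1050) and 309 to 905 CPM in HF long (median 530). SF replicates 1 and 9 lay within the HF long range, and SF replicate 2 was highest. LGALS3 was higher by 1.17 ± 0.23 on the log2 scale (adjusted p = 0.0186). LGALS1, another galectin (0.67 ± 0.18), and CLDN7, a tight junction protein (0.58 ± 0.16), were higher, and ITGA6, a laminin receptor subunit (-0.76 ± 0.22), was lower. These 3 were called in 4 to 6 of the 17 fits that left out 1 recipient.

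Of 20 genes for class I molecules and their peptide supply, 3 were higher and 1 lower, with a median of 0.52. B2M, beta-2 microglobulin, was at 60.4 to 242 CPM in SF (median 137) and 25.5 to 118 CPM in HF long (median 70.8). SF replicates 1, 8 and 5 lay within the HF long range, and SF replicate 2 was highest. B2M was higher by 1.0 ± 0.26 on the log2 scale (adjusted p = 0.0363). ERAP1, which trims peptides (1.53 ± 0.38), and PSMB9, an immunoproteasome subunit (1.5 ± 0.42), were higher, while PDIA3, a disulfide isomerase that also serves class I loading, was lower (-0.80 ± 0.16, adjusted p = 0.0186). IFI30, a lysosomal thiol reductase induced by interferon gamma and named after its values were seen, was at 84.1 to 238 CPM in SF and 28.8 to 79.7 CPM in HF long with no library overlapping (1.14 ± 0.21, adjusted p = 0.0149). Of 31 tested interferon-stimulated genes edgeR called none (5 had an unadjusted p under 0.05), with a median of 0.08. Over their own sets of genes, limma with recipient as a random effect called 0 and DESeq2, run without the low-count filter, 1.

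In the FGF, BMP, WNT and TGF-beta pathways 2 of 35 genes were lower and none higher. BMP2, a ligand, was at 2.39 to 18.7 CPM in SF (median 5.2) and 10.6 to 44.7 CPM in HF long (median 21.4). SF replicates 5 and 6, from 1 recipient, were the only SF libraries within the HF long range, and the log2 fold change was -1.76 ± 0.38 (adjusted p = 0.02). SMAD6, an inhibitor that BMP signals induce, was lower by 1.81 ± 0.51 (adjusted p = 0.0477), and was called in 3 of the 17 fits that left out 1 recipient. TBX2, a T-box repressor named after its values were seen, differed by -2.0 ± 0.32 (adjusted p = 0.0115), with 3.21 to 20.6 CPM in SF and 15.6 to 68.8 CPM in HF long.

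Of the p53 targets and apoptosis genes, SESN1, a p53-induced sestrin (-0.90 ± 0.23), and BCL2, an inhibitor of apoptosis (-1.40 ± 0.35, named after its values were seen), were lower. Of 30 cell cycle genes TYMS, of thymidylate synthesis, was called (0.38 ± 0.09, adjusted p = 0.029), with 73.8 to 121 CPM in SF and 58.8 to 83.2 CPM in HF long. Of 24 imprinted and IGF-axis genes IGFBP6 (2.02 ± 0.52) and NNAT (1.18 ± 0.33) were higher, both at medians under 3 CPM and named after their values were seen. IGFBP6 was highest in SF replicates 6 and 5 (12.1 and 10.9 CPM), from 1 recipient, and was at 1.28 with recipient as a random effect in limma (adjusted p = 0.193). NNAT was at 0.61 without SF replicates 9 and 10, and was not called there or with the random effect (adjusted p = 0.114).

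The genes called among first-series libraries alone were, beside ELOVL4, CGA and IFI30, RNF212B, PAGE4, CITED2, RBM38 and 2 without a symbol in the reference table. RBM38, an RNA-binding p53 target, was at 3.9 to 9.83 CPM in SF and 10.5 to 16.3 CPM in HF long, with no library overlapping and a log2 fold change of -0.96 ± 0.15 (adjusted p = 0.0115). CITED2, a co-regulator of CBP and p300, was at 18.2 to 57.3 CPM in SF and 47.6 to 101 CPM in HF long (-1.22 ± 0.19, adjusted p = 0.0115). SF replicate 8 was the only SF library in the HF long range. PAGE4, a disordered cancer-testis protein, was at 36.7 to 532 CPM in SF (median 129) and 10.2 to 82.1 CPM in HF long (median 30.6). SF replicates 10 and 9 were the only SF libraries within the HF long range, and the log2 fold change of 2.32 ± 0.48 was 2.70 without them. RNF212B, a ring finger protein of meiotic recombination, was higher by 1.5 ± 0.22 (adjusted p = 0.0115). All 4 were named after their values were seen.

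Markers of other cells that a conceptus sample could carry were taken as lists of uterine and immune genes, and edgeR called none of them. Of 11 uterine genes tested by edgeR 2 had an unadjusted p under 0.05, and of 6 immune genes 4 did. Over its own set of genes, limma with recipient as a random effect called 1 uterine and 0 immune genes. DESeq2, run without the low-count filter, called 2 of the 18 uterine and 2 of the 21 immune genes in the deposited counts. The leukocyte integrin subunit ITGB2, described above, was not on the immune list. Tested or not, the 18 uterine epithelium and stroma genes in the deposited counts summed to 6.37 to 115 CPM in SF and 8.98 to 84.8 CPM in HF long. The 21 immune cell genes in the deposited counts summed to 8.33 to 44.1 CPM and 10.6 to 57.2 CPM.

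Against the short HF conceptuses, fitted with all 3 groups, edgeR called 0 of 16283 genes (0%) for SF. Limma-voom called 0 and DESeq2 115, each over its own set of genes. In edgeR 1511 genes had an unadjusted p under 0.05 where 814.15 would be expected. Both comparisons use the same SF libraries, 4 of the 7 HF short conceptuses share a recipient with an HF long one, and the difference between the comparisons was not tested. Fold changes of SF against HF short, with their SE, were 5.36 ± 1.29 for CGA, 1.44 ± 0.34 for FETUB, 0.82 ± 0.19 for FABP3, -0.95 ± 0.23 for GPAM, -3.31 ± 0.92 for HAND1, -1.10 ± 0.33 for GATA3 and -0.94 ± 0.41 for FADS1. Medians of HF short libraries were 870 CPM for FADS1, 71.9 CPM for GATA3 and 1.04 CPM for ELOVL4, each between the SF and HF long medians. For FABP3 (206 CPM) the HF short median was close to that of HF long (194 CPM). For ELOVL4 the HF short libraries ran from 0.183 to 3.1 CPM, with the pair from 1 recipient (1.2 and 1.5 cm) below every SF library.

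Each conceptus was placed on an axis from the HF long mean (0) to the SF mean (1). For SF and HF long conceptuses, genes and means were taken with the own recipient left out. For HF short conceptuses they came from all SF and HF long recipients (788 genes). SF conceptuses lay at 0.43 to 1.03 (median 0.705) and HF long ones at -0.44 to 0.83 (median 0.175). Most of each group lay on its own side, but HF long replicates 1 (12 cm, 0.83) and 3 (9 cm, 0.61) lay among SF. HF long replicates 9, 6, 2 and 8, those apart in the principal component analysis, were the farthest from SF at -0.44, -0.34, -0.23 and -0.19. The longest SF conceptus, replicate 3 at 14 cm, was at 1.03, as was replicate 10 at 1.7 cm, and the other SF conceptus over 5 cm (7 cm) was lowest at 0.43.

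HF short conceptuses covered nearly the whole axis, from -0.14 to 1.02 (median 0.37). Replicates 4 and 5 (1.2 and 1.5 cm), from 1 recipient, lay at 1.02 and 0.87, while replicates 7 and 6 (1.3 and 2.8 cm), which share recipients with HF long replicates 10 and 8, lay at -0.14 and -0.03. With genes and means taken without their own recipients these were at -0.16 and 0.06. Replicates 2 and 3, which share recipients with HF long replicates 3 and 4, moved in the same way from 0.53 and 0.37 to 0.68 and 0.46. Conceptuses of 1 recipient lay near each other (SF replicates 3 and 4 at 1.03 and 0.8, 5 and 6 at 0.49 and 0.43, 1 and 8 at 0.58 and 0.48), also where their lengths were 14 and 4 cm. These positions are a description and carry no test.

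**Figure D5:**
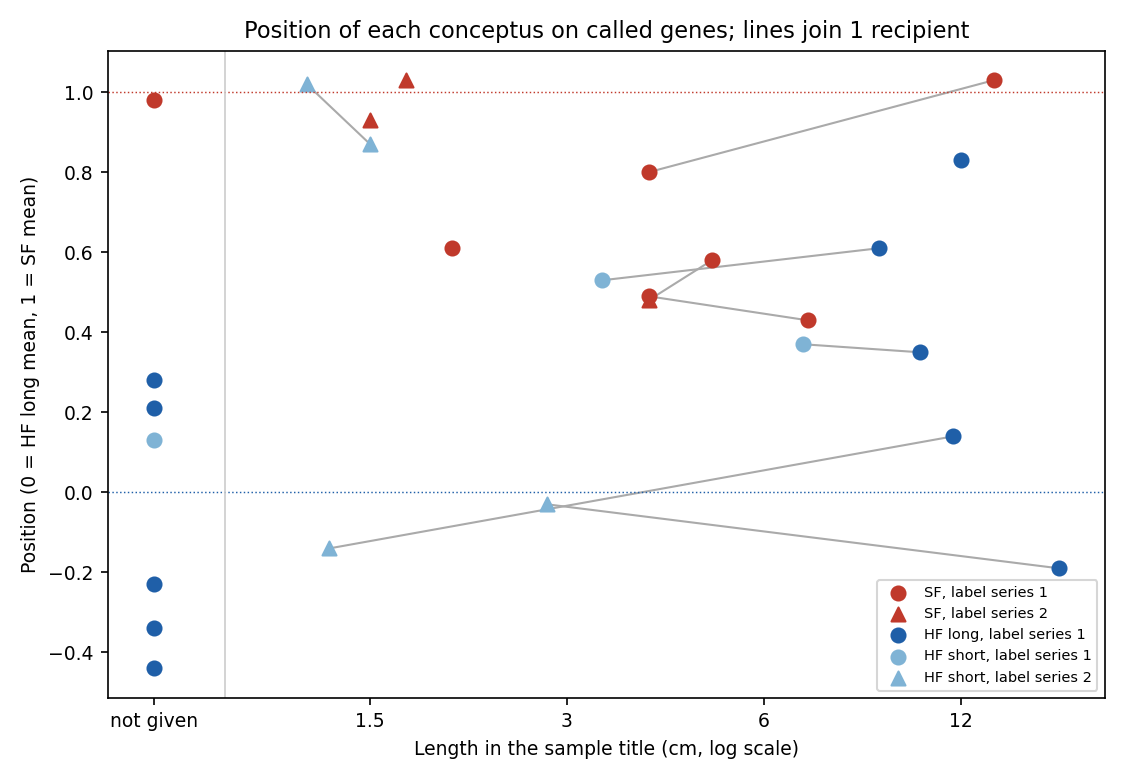
Position of each conceptus between the HF long mean (0) and the SF mean (1) on the y axis against its length in cm on the x axis (log scale, conceptuses without a given length at the left). Points are libraries in SF (red), HF long (blue) and HF short (light blue), triangles mark the second series of sample numbers, and grey lines join conceptuses of 1 recipient. SF conceptuses of 1.7 and 14 cm both lie at 1.03, and joined points differ less in position than the groups' ranges.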

How the data were processed

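The deposited table held raw read counts (whole numbers) for 31651 named genes and 52 libraries, with 1020 blank lines that were left out. Per the labels' protocols, conceptus RNA was extracted with the AllPrep kit and libraries were made with a stranded TruSeq mRNA kit. HISAT2, StringTie, edgeR and the build UMD3.1 are named per the submitters' processing notes, with versions, settings and strand use in counting not given in the sources used here. Without strand, overlapping and antisense genes cannot be told apart. Columns were matched to samples by title. For 16 of the 20 SF and HF long samples the description named another animal than the title, and titles were used.

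Counts were summed per recipient (7 SF, 10 HF long). Genes were filtered with filterByExpr (minimum count 10, minimum total count 15), scaled by TMM and tested with edgeR 4.0.16 (quasi-likelihood, two-sided) in R 4.3.3, with Benjamini-Hochberg adjustment over all genes tested and calls at 0.05. Alternatives used limma 3.58.1, DESeq2 1.42.0, other filters and scalings, other treatments of the recipients, and each recipient left out. DESeq2 was given counts without the low-count filter (27454 genes with a fold change), and limma with the random effect tested 14976 genes. Their calls of list members can therefore include genes outside the number tested by edgeR. Values after ± are SE of the log2 fold change, as implied by it and its F statistic, unless SD is written. CPM were scaled by TMM over 27 conceptus libraries, ranges and medians are over libraries, and means with SD are over recipients. Recipients are separate animals. The script was tested on simulated counts. The SF against HF short comparison used 3 groups of recipient sums (10 HF long, 7 SF and 6 HF short), in which recipients with a long and a short conceptus enter both HF groups.

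The naming rule required a call, a group mean of 5 CPM or more in SF or HF long, whichever was higher, and a share of 80% or more of SF and HF long recipient pairs in the direction of the change. From these it took the 10 largest fold changes each way (those without a symbol or description in the RefSeq table, assembly ARS-UCD2.0, are not named) and, per list, at most 4 members by smallest p. Members, lists and tests were chosen with earlier results of these data known. No coordinates or sequences are given. A result for 1 gene is not reported here.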

Additional observations from a re-analysis of the deposited data

Results flagged for a closer look

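A sample lay far from the others of its group in 6 of 171 groups of values tested by Dixon's criterion, where chance gives about 1 in 20. The values tested were log2(CPM + 1) per recipient and the positions above, and those printed here are CPM. HF long replicate 1 was the highest of its group for FSIP2 (6.18 CPM, next 1.69), OTX2 (1.58 CPM, next 0.645) and SLC2A4 (1.3 CPM, next 0.524), and the lowest for SLC7A6 (78 CPM, next 103), in each case toward the SF level. HF long replicate 3 was the highest for POU5F1 (4.89 CPM, next 1.85), also toward SF. SF replicate 7 was the lowest of its group for MSX2 (7.4 CPM, next 12.3), away from HF long.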

How the results depend on the processing

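The 57 genes named by the rule kept their direction in all 1933 gene and alternative pairs and their call in 1318 of them. The genes were chosen for their call and direction in these data, and the fits share most libraries. The kept direction was thus largely set by that choice and is no separate support. None of the 57 was called in every alternative, and none was called with SF replicates 9 and 10 left out or with HF long replicates 2, 8 and 9 left out. Against 788 calls (382 higher, 406 lower), there were 1434 with conceptuses as separate samples (676 and 758) and 9 among first-series libraries (5 and 4). DESeq2 gave 1767 (883 and 884), edgeR with no low-count filter 464 (228 and 236) and a 2-fold minimum 340 (190 and 150). The fit of 27 libraries with the label series as a covariate gave 1454 (621 and 833). It too took conceptuses of 1 recipient as separate samples, so 1434 is the nearer count to set it against. Of the alternatives chosen after seeing the data, leaving out SF replicates 9 and 10 gave 3 calls (1 and 2). Leaving out HF long replicates 2, 8 and 9 gave 1 (0 higher and 1 lower), and leaving out HF long replicates 1 and 9 gave 748. Also chosen then was the fit of the 20 libraries as separate samples with the label series as a covariate, which gave 1103. Leaving out 1 recipient gave 266 to 1394 calls (127 to 689 higher, 134 to 705 lower). Against HF short, 0 calls became 19 with separate samples, 1 with separate samples and the label-series covariate, and 115 by DESeq2. With 1 recipient left out 0 to 34 were called. The cause of these changes was not tested, beyond fewer genes or recipients entering some fits. No paired analysis of SF against HF was possible because SF and HF conceptuses came from different recipients. Recipients that gave a long and a short HF conceptus entered both HF groups as separate units. Genes at a few CPM, such as ELOVL4 and COLCA2, rest on few reads, and low genes are measured with the least precision.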
